A study of Sus scrofa with 11 samples.

Results

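The 7 genes that encode the subunits of AMP-activated protein kinase (AMPK) were described in the M. semimembranosus, a hind limb muscle, of young female pigs. All probe sets annotated with 1 gene symbol, that of a subunit, were taken, without the array's control probe sets. This gave 9 probe sets for 7 genes, among 23999 probe sets and 6765 genes with a single symbol. PRKAA1 and PRKAG1 had 2 probe sets each and the other 5 genes had 1 each. The pigs were Duroc gilts that entered the trial at about 10 weeks of age and ate their diet for 63 days. The low protein (LP) diet held 128 g/kg crude protein and 7 g/kg lysine and was given to 5 of the pigs studied. The high protein (HP) diet held 217 g/kg crude protein and 13.0 g/kg lysine and was given to 6. Both diets supplied 14 MJ/kg of digestible energy. Each pig gave 1 array of whole muscle RNA, so the replicate is the pig. The gilts were blocked on their weight at the start and penned in 2 groups, neither of which is given per pig, so their part in any difference was not tested. If each pen ate 1 diet, which is not stated, pen and diet could not be told apart. In whole muscle, fewer cells of a type and less RNA per cell cannot be told apart. The comparison asks how much of each subunit transcript this muscle held and whether its level differed between the diets.

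AMPK is the energy sensor of the cell. It is a complex of a catalytic α subunit, a β subunit that acts as scaffold and binds glycogen, and a γ subunit that binds AMP, ADP and ATP. When the cell runs short of ATP, the active kinase turns on the uptake and oxidation of fuel and turns off the synthesis of fat, protein and glycogen. PRKAG3 encodes γ3, which is found mainly in skeletal muscle rich in glycolytic fibres, and is the gene behind the high muscle glycogen of Hampshire pigs that carry the RN- allele.

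The values are log2 expression levels, in which 1 unit is a doubling. The levels of different probe sets cannot be set against each other, because each binds its target with its own strength. Each was therefore read against the highest of the 23 negative control probe sets on the same array, which lay between 1.96 and 3.58. Of the 9 subunit probe sets, 8 were above it on all 11 arrays. On the arrays as a whole, 74.9% to 85.3% of probe sets were above it and every array had a median of 6.72. The markers of the labelled tissue were present, since 6 of the 8 listed skeletal muscle fibre genes were measured and all 6 were above the negative controls on every array. Their mean level ran from 13.09 to 13.43 in LP pigs and from 12.96 to 13.86 in HP pigs (exact permutation p = 0.212).

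None of the 9 subunit probe sets differed between the diets at a limma p of 0.05 or less, either higher or lower in LP pigs. Over all probe sets, 5.11% passed that threshold, with 2.15% higher and 2.97% lower in LP pigs. With the exact permutation test of the difference in means, again 0 of the 9 passed, against 5.4% of all probe sets. After Benjamini-Hochberg adjustment over the 23999 probe sets no probe set of the array passed, and the adjusted limma p of the subunits was 0.968 or more. The LP and HP values overlapped for all 9 subunit probe sets, while 0.579% of all probe sets had values that did not overlap. With 5 pigs against 6 the smallest p the exact test can give is 0.00216.

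**Figure D1:**
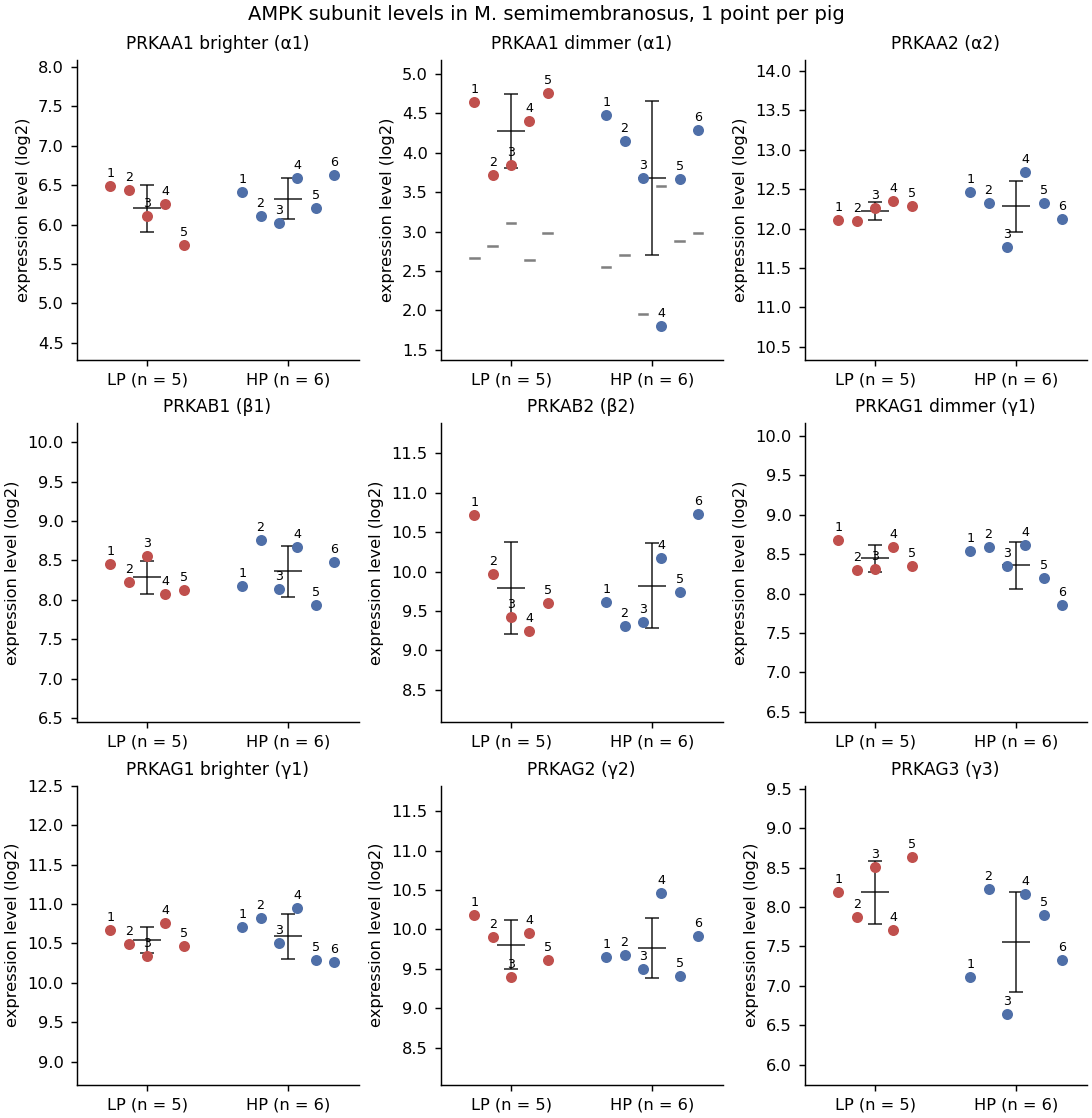
Expression level (log2) of each AMPK subunit probe set, 1 numbered point per pig, LP left (n = 5) and HP right (n = 6), with bars for the mean ± SD and grey ticks for the highest negative control of the array where it falls inside the panel. Every panel spans the same number of log2 units. The PRKAG3 panel holds 3 HP pigs below all LP pigs, and the panel of the dimmer PRKAA1 probe set holds 1 HP pig at 1.80, below its negative control.

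The γ3 subunit gene, PRKAG3, had the largest mean difference of the 9 probe sets. Its level was 8.19, 7.88, 8.51, 7.71 and 8.64 in LP pigs 1 to 5. In HP pigs the lowest, median and highest levels were 6.65, 7.61 and 8.22. All 5 LP pigs lay above the HP mean, and 3 HP pigs (replicates 1, 3 and 6) lay below every LP pig, but the other 3 HP pigs lay within the LP range. The mean was 8.19 ± 0.40 in LP pigs (SD, n = 5) and 7.56 ± 0.63 in HP pigs (SD, n = 6). The LP minus HP difference was 0.63 (SE 0.31, 95% interval -0.06 to 1.31), a ratio of 1.54 with an interval of 0.96 to 2.48. It did not pass the threshold (limma p = 0.0694, adjusted limma p = 0.968, exact permutation p = 0.0952). PRKAG3 was 4.34 to 5.65 above the negative controls, and so at background on none of the 11 arrays. Its pooled within-diet SD was 0.54, against a median of 0.25 over the probe sets with a mean at or above the median of all.

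The call for PRKAG3 depended on the settings and on single pigs. Its difference was positive in all 20 alternatives run, and its limma p reached 0.05 or less in 8 of them. The 20 include the exact permutation test, which keeps the deposited difference and has no limma p. The rest were 8 other settings and 11 fits that each left out 1 pig. It was 0.91 with the level of the hybridisation spike-ins as a covariate and 0.90 with HP pigs 1, 2 and 4, the 3 arrays brightest in the spike-ins, left out, and both passed. HP pigs 2 and 4 also had the highest HP levels of PRKAG3 (8.22 and 8.16), so leaving them out raises the difference. The covariate takes 1 slope for both diets, while the r of PRKAG3 with the spike-ins was -0.232 in LP pigs and 0.784 in HP pigs. Leaving out 1 pig at a time gave 0.44 to 0.76, and the limma p passed without HP replicate 2 (0.76), without HP replicate 4 (0.75) and without LP replicate 4 (0.74). The 0.44 was found without HP replicate 3, the pig with the lowest PRKAG3.

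**Figure D2:**
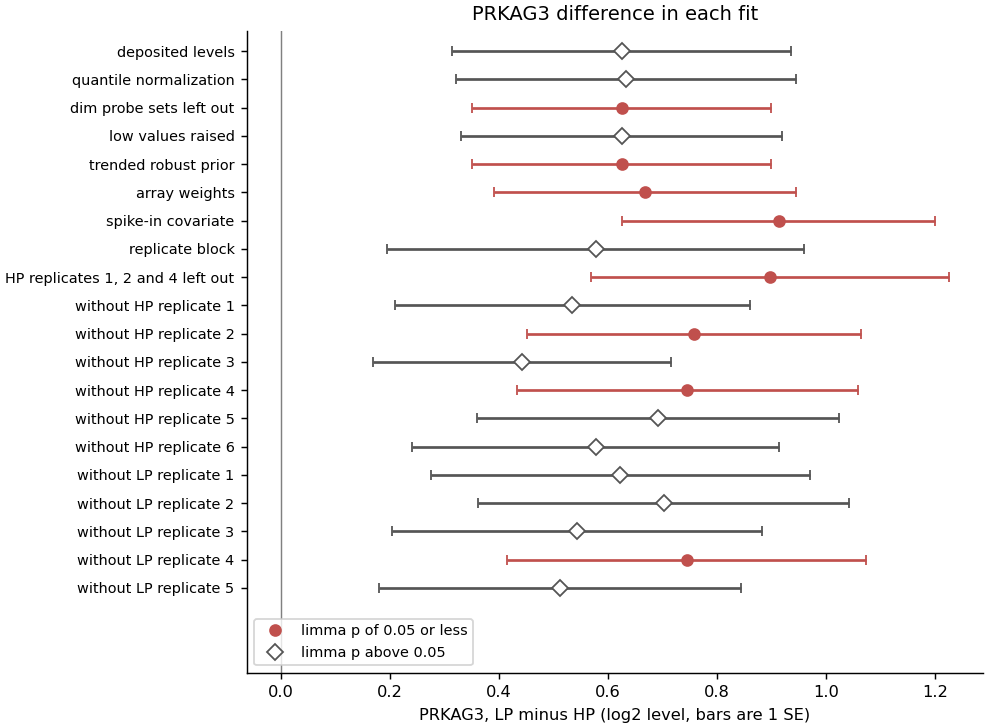
LP minus HP difference of PRKAG3 (log2 level, x axis) in the deposited levels, in 8 other settings and with each pig left out in turn, with bars for 1 SE. Filled circles mark a limma p of 0.05 or less and open diamonds a higher p. All differences lie to the right of 0, between 0.44 and 0.91.

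The other γ subunits differed less between the diets. PRKAG2 encodes γ2, a longer γ subunit best known from the heart. Its level was 10.18, 9.90, 9.39, 9.95 and 9.61 in LP pigs, and had a lowest, median and highest value of 9.41, 9.66 and 10.46 in HP pigs. The groups overlapped throughout, and the difference was 0.04 (SE 0.21, 95% interval -0.42 to 0.51, exact permutation p = 0.866). PRKAG1 encodes γ1, the γ subunit found in most tissues. Its brighter probe set averaged 10.54 ± 0.17 in LP pigs and 10.59 ± 0.28 in HP pigs, a difference of -0.04 (95% interval -0.39 to 0.30). Its dimmer probe set differed by 0.09 (95% interval -0.26 to 0.44). Both probe sets of PRKAG1 ranked the pigs alike once the diet means were removed (n = 11, Pearson r = 0.910, permutation p = 0.00028, adjusted over 2 genes 0.00056; Spearman rho = 0.909, permutation p = 0.00197), and r was 0.882 without the 2 pigs farthest from the median.

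The γ subunits were also compared within each array, in 5 isoform comparisons that were chosen after the levels had been seen. The PRKAG3 minus PRKAG1 difference averaged -2.36 ± 0.53 in LP pigs and -3.03 ± 0.57 in HP pigs. These values carry the unequal binding of the probe sets, so only their shift between the diets can be read. The shift was 0.67 (exact permutation p = 0.0931, adjusted 0.341), and 4 of the 5 LP pigs lay above the HP mean. For PRKAG3 minus PRKAG2 the shift was 0.58 (exact permutation p = 0.136, adjusted 0.341). The corresponding shifts were 0.08 for PRKAG2 minus PRKAG1, 0.06 for PRKAA2 minus PRKAA1 and 0.04 for PRKAB2 minus PRKAB1.

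The catalytic subunits are encoded by PRKAA1 (α1, found in most tissues) and PRKAA2 (α2, the main catalytic form of skeletal muscle). PRKAA2 had levels of 12.11, 12.09, 12.26, 12.35 and 12.29 in LP pigs. In HP pigs the lowest, median and highest were 11.76, 12.33 and 12.72. The 5 LP pigs lay inside the HP range, and the means were 12.22 ± 0.11 in LP pigs and 12.28 ± 0.32 in HP pigs. The difference was -0.07 (SE 0.16, 95% interval -0.42 to 0.29, exact permutation p = 0.677), and its sign turned to 0.05 after quantile normalization and to 0.13 with the spike-in covariate. The brighter PRKAA1 probe set averaged 6.21 ± 0.30 in LP pigs and 6.33 ± 0.25 in HP pigs, a difference of -0.12 (95% interval -0.51 to 0.26, exact permutation p = 0.474). The dimmer PRKAA1 probe set averaged 4.27 ± 0.47 in LP pigs and 3.68 ± 0.98 in HP pigs, a difference of 0.60 (SE 0.45, 95% interval -0.38 to 1.58, exact permutation p = 0.255). That difference rested largely on 1 library: HP replicate 4 read 1.80, not above background, and the difference was 0.22 without it. The correlation of both PRKAA1 probe sets across pigs did not pass (Pearson r = -0.273, permutation p = 0.460; Spearman rho = -0.04, permutation p = 0.926), and the files do not say which transcript each detects.

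The β subunits are encoded by PRKAB1 and PRKAB2, of which β2 is the main form of skeletal muscle. PRKAB1 averaged 8.29 ± 0.21 in LP pigs and 8.36 ± 0.33 in HP pigs, a difference of -0.07 (95% interval -0.46 to 0.31, exact permutation p = 0.671). PRKAB2 had levels of 10.71, 9.97, 9.43, 9.25 and 9.60 in LP pigs, and a lowest, median and highest level of 9.31, 9.68 and 10.73 in HP pigs. A single pig on each diet, LP replicate 1 and HP replicate 6, stood above the rest. The difference was -0.03 (SE 0.32, 95% interval -0.73 to 0.67, exact permutation p = 0.918). Leaving out 1 pig at a time gave -0.26 to 0.15, the extremes being without LP replicate 1 and without HP replicate 6.

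**Figure D3:**
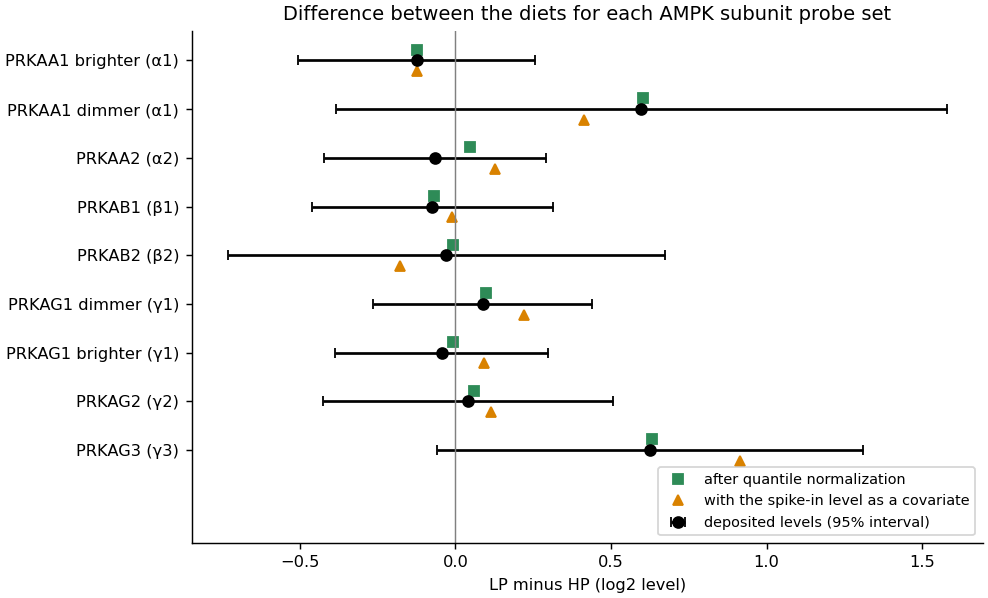
LP minus HP difference (log2 level, x axis) of each subunit probe set, with circles and 95% intervals for the deposited levels, squares after quantile normalization and triangles with the spike-in level as a covariate. All 9 intervals cross 0, and that of PRKAG3 runs from -0.06 to 1.31.

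Subunit transcripts were then compared across pigs after the diet means were removed, reading each gene by its brighter probe set. Of the 21 pairs of subunits none passed Benjamini-Hochberg adjustment over all pigs, and 2 had an unadjusted permutation p of Pearson r below 0.05. Without HP replicate 6, PRKAG1 with PRKAG2 passed by Spearman rho (0.903, adjusted permutation p = 0.0212) but not by Pearson r (0.812, adjusted permutation p = 0.171). PRKAA1 and PRKAG2 had a Pearson r of 0.730 (n = 11, permutation p = 0.0123, adjusted 0.206) and a Spearman rho of 0.745 (permutation p = 0.0179). Pearson r was 0.730 within the LP pigs, 0.752 within the HP pigs and 0.827 without the 2 pigs farthest from the median. PRKAA1 and PRKAB2 had a Pearson r of 0.727 (n = 11, permutation p = 0.0196, adjusted 0.206) and a Spearman rho of 0.691 (permutation p = 0.031). PRKAG3 had a Pearson r of 0.17 with PRKAG1, 0.11 with PRKAG2, 0.05 with PRKAB2 and -0.14 with PRKAA1. Within the LP pigs r was -0.698 with PRKAG1, -0.650 with PRKAG2, 0.01 with PRKAB2 and -0.706 with PRKAA1. Within the HP pigs these were 0.425, 0.417, 0.08 and 0.187, and the values within a diet were not tested. With PRKAB1 the r of PRKAG3 was 0.509 (permutation p = 0.165, adjusted 0.579) and its Spearman rho 0.618 (permutation p = 0.0869), and r was 0.03 without HP replicates 2 and 4. Its r with PRKAA2 was 0.613 (permutation p = 0.096), which rested on HP replicates 3 and 4, since r was 0.03 without them.

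Array brightness and tissue make-up were set beside the subunits in 28 relations, also chosen after the levels had been seen. The spike-ins are foreign transcripts added to every sample at hybridisation, and averaged 11.58 in LP pigs and 11.84 in HP pigs (exact permutation p = 0.186). PRKAA2 moved with them, with a Pearson r of 0.894 (n = 11, permutation p = 0.00078, adjusted 0.00728) and a Spearman rho of 0.9 (permutation p = 0.00189). Its r was 0.937 without the 2 farthest pigs, 0.924 within the LP pigs and 0.891 within the HP pigs. PRKAA2 also had an r of 0.863 with the mean of the fast fibre markers (adjusted permutation p = 0.0049) and 0.939 with that of the slow fibre markers (adjusted permutation p = 0.0042). After quantile normalization these became 0.05 and 0.577. For PRKAG3 the relation with the spike-ins was 0.620 (permutation p = 0.114, adjusted 0.400), or 0.293 without the 2 farthest pigs. It was -0.232 within the LP pigs and 0.784 within the HP pigs.

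The level of PRKAG3 and the signal of the adipocyte markers ran in opposite directions across pigs, but the relation did not pass adjustment. Pearson r was -0.727 (n = 11, permutation p = 0.0345, adjusted 0.239) and Spearman rho was -0.691 (permutation p = 0.0468). Pearson r was -0.464 within the LP pigs, -0.795 within the HP pigs, -0.811 without the 2 farthest pigs and -0.746 after quantile normalization. Of the 9 listed adipocyte markers, 6 were measured and 5 were above the negative controls on every array. The other, PCK1, was above them in 3 of 5 LP pigs and 3 of 6 HP pigs. Its SD was the widest of the 6, at 1.39 in LP pigs and 2.38 in HP pigs. PCK1 therefore weighs heavily in the marker mean, and the relation of PRKAG3 with the markers without PCK1 was not tested. The mean level of the 6 markers ran from 6.21 to 7.06 in LP pigs and from 5.34 to 7.09 in HP pigs, a difference of 0.20 (exact permutation p = 0.558). The part of fat cells in the PRKAG3 values was not tested.

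**Figure D4:**
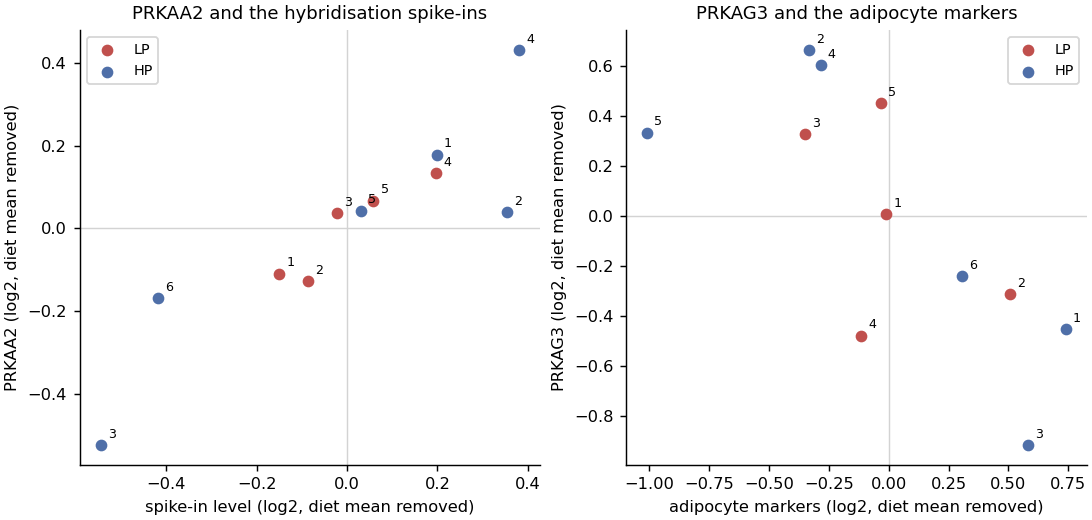
Left, PRKAA2 against the hybridisation spike-ins and right, PRKAG3 against the mean of the adipocyte markers, 1 numbered point per pig (LP red, HP blue), all as log2 level minus the mean of the pig's diet. Pearson r is 0.894 on the left and -0.727 on the right.

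The probe sets most like PRKAG3 across the 11 pigs were named by their Pearson r after the diet means were removed, among 5980 probe sets. As they were chosen for that r, it carries no p. The 4 highest were DLG5, a scaffold protein of cell polarity, at 0.956, LOC100514282 at 0.914, DMD, which encodes dystrophin, at 0.907 and ATP6AP2, an accessory protein of the proton pump, at 0.906. The 2 lowest were both of SLCO3A1, an organic anion transporter, at -0.82 and -0.80. The LP minus HP differences of these 6, beside 0.63 for PRKAG3, were -0.13, -0.15, 0.01 and -0.03 for the first 4, and -0.08 and 0.28 for SLCO3A1. All points share the array, and the 4 highest had an r of 0.52 to 0.67 with the spike-ins.

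The rest of the pathway was read from 6 lists, with each gene read by its brightest probe set. Of 134 listed genes 73 were measured, which means only that they had a probe set with 1 symbol. Not all were above the negative controls on every array. In the lists of upstream regulators, substrates, related kinases and fuel genes, 10 of 11, 16 of 19, 6 of 8 and 16 of 17 were. LEPR, an upstream regulator, was above them on none. At a limma p of 0.05 or less, 1 gene was higher and 3 were lower in LP pigs, which is 5.48% of those measured. Over the 6765 genes the share was 4.73%, with 1.57% higher and 3.16% lower in LP pigs. The share in the pathway was therefore close to that of all genes.

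Among 11 measured upstream kinases and regulators of AMPK, 1 was lower and none higher in LP pigs, and the median LP minus HP difference was -0.03, against -0.04 over all genes. The gene that fell was SESN1, which encodes sestrin 1, a stress-induced protein that activates AMPK and restrains mTORC1. SESN1 was 12.50, 12.52, 12.54, 12.79 and 12.73 in LP pigs, and its lowest, median and highest levels were 12.46, 13.11 and 13.31 in HP pigs. The difference was -0.38 (SE 0.16, limma p = 0.0393, exact permutation p = 0.0476). The other SESN1 probe set fell by 0.43 (limma p = 0.00981, exact permutation p = 0.0173). STK11, which encodes LKB1, the main kinase that phosphorylates AMPK in muscle, was named for its role and had a difference of -0.18 that did not pass (exact permutation p = 0.312).

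Among 19 measured AMPK substrates 1 was higher and none lower in LP pigs, with a median difference of 0.03. CREB1, a transcription factor activated by phosphorylation, averaged 7.01 ± 0.19 in LP pigs and 6.71 ± 0.14 in HP pigs, a difference of 0.30 (SE 0.12, limma p = 0.0324, exact permutation p = 0.0173). Its other probe set gave 0.07 (exact permutation p = 0.628). Among 17 measured genes of fuel uptake and oxidation, 2 were lower and none higher in LP pigs, and the median was -0.16. The marker lists of skeletal muscle fibre, fast fibre and slow fibre each had a median of -0.24, and the spike-ins differed by -0.26. PDK4, the kinase that switches off pyruvate dehydrogenase and so spares glucose, averaged 12.54 ± 0.43 in LP pigs and 13.07 ± 0.31 in HP pigs, a difference of -0.53 (SE 0.22, limma p = 0.0324, exact permutation p = 0.0498). Its other probe set gave -0.70 and did not pass (exact permutation p = 0.0931). PPARA, a nuclear receptor that drives fatty acid oxidation, averaged 3.05 ± 0.73 in LP pigs and 3.97 ± 0.49 in HP pigs, a difference of -0.92 (SE 0.35, limma p = 0.0232, exact permutation p = 0.0411). It was above the negative controls in 3 of 5 LP pigs and 6 of 6 HP pigs, and its other probe set gave 0.04 (exact permutation p = 0.955).

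None of the 8 AMPK-related kinases, 11 genes of adenylate and phosphocreatine metabolism and 9 glycogen enzymes that were measured passed with their brightest probe set. Their medians were -0.03, -0.20 and -0.11, beside -0.24 for the skeletal muscle fibre markers. Of the 73 measured genes of the 6 lists, 33 had more than 1 probe set. AK3, of adenylate metabolism, and SLC2A4, of fuel uptake, each had 1 of 3 probe sets past the threshold, though the brightest did not pass. GYS1, which encodes muscle glycogen synthase, an enzyme that AMPK phosphorylates and inhibits, was named for its role and after its values were seen. Its brightest probe set gave 0.22 and did not pass (exact permutation p = 0.190), while both dimmer probe sets were higher in LP pigs. The middle one read 8.25, 7.95, 8.21, 8.07 and 7.91 in LP pigs and no more than 7.78 in any HP pig. The dimmest was also without overlap, but narrowly, with a lowest LP level of 6.88 and a highest HP level of 6.85. Over the array, 0.579% of all probe sets had no overlap between the diets. The difference of the middle one was 0.45 (SE 0.11, exact permutation p = 0.00216, the smallest the test can give), and that of the dimmest was 0.48 (SE 0.15, exact permutation p = 0.00216). Neither passed adjustment over all probe sets with limma. Both passed unadjusted in all settings in which each pig was left out (0.41 to 0.49 and 0.41 to 0.55), and the dimmest did not pass without HP replicates 1, 2 and 4 (0.38).

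**Figure D5:**
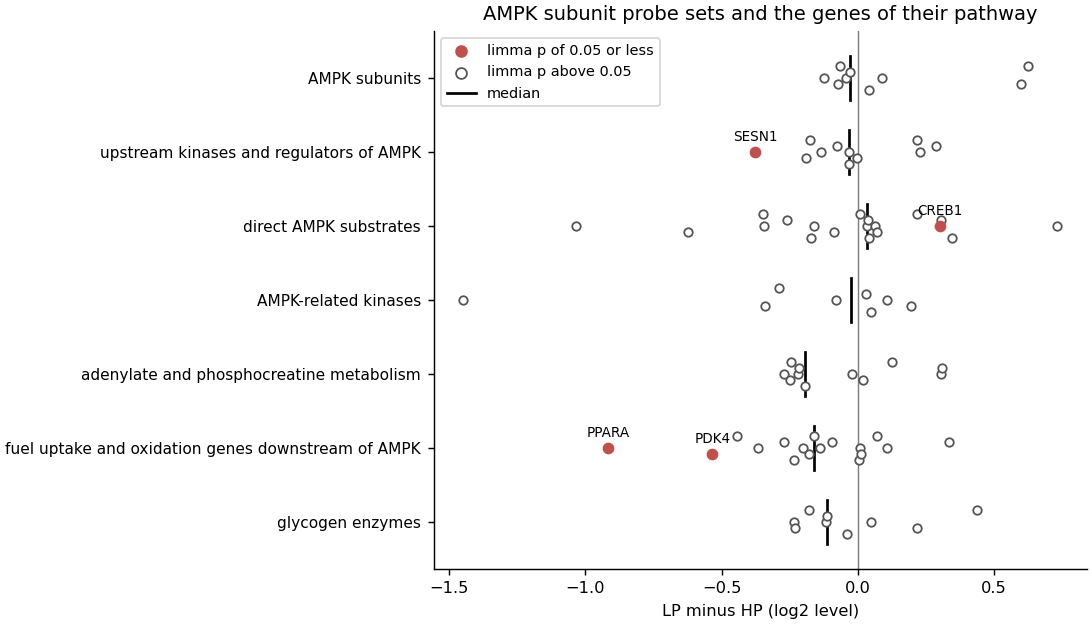
LP minus HP difference (log2 level, x axis) of the 9 AMPK subunit probe sets and of the measured genes of 6 lists of their pathway, 1 point per probe set or gene, with a bar for the median of each row. Filled points have a limma p of 0.05 or less, and the 4 of them are named.

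None of the 4 named genes passed after adjustment over all probe sets (adjusted limma p of 0.95 to 0.96), and each was lost in at least 1 other setting. With the spike-in covariate the differences were -0.17 for SESN1, 0.25 for CREB1, -0.33 for PDK4 and -0.84 for PPARA, and none passed. SESN1 and PDK4 also lost their call without any 1 of HP replicates 1, 2, 4 and 5 or LP replicates 1, 2 and 3 (-0.36 to -0.31 for SESN1, -0.53 to -0.42 for PDK4). CREB1 lost it without any 1 of HP replicates 1, 2 and 6 or LP replicates 1 and 3 (0.24 to 0.29), and PPARA without any 1 of LP replicates 1, 2 and 4 (-0.85 to -0.76). The number of genes past the threshold was 14 without HP replicate 3 (1 higher, 13 lower in LP pigs), 1 without HP replicate 2 (0 higher, 1 lower), and 2 without any 1 of HP replicate 5 and LP replicates 1, 2 and 3. Without HP replicates 1, 2 and 4 together the balance turned, with 3 genes higher and 0 lower in LP pigs.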

How the data were processed

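Total RNA of 11 muscles was amplified, and the labelled cDNA made from it was hybridised to the Affymetrix porcine array, 1 array per pig. The authors deposited a table of log2 expression levels per probe set, summarised from probe intensities. All 11 arrays had the same median, but how background and scale were set is not given in the sources used here. Arrays carry no read depth, so the number of pigs limits the precision. Symbols came from the platform annotation: of 23999 probe sets, 10069 had 1 symbol, 198 several and 13732 none. A gene ID of a current RefSeq table matched 9961 of the 10069, and 0 symbols were updated.

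Differences (LP minus HP) were fitted with limma 3.58.1 in R 4.3.3 on all 23999 probe sets, with diet as the only term, and p-values were adjusted by Benjamini-Hochberg over all of them. The 124 control probe sets were left out. Calls used an unadjusted p of 0.05, as in the study. The study's own comparison needs probe-level errors that a table of levels lacks. For single values, the difference of means was set against every one of the 462 possible divisions into 5 and 6 pigs (exact permutation, two-sided). Correlations used 100000 shuffles within diet, with diet means removed (numpy 2.4.6, scipy 1.17.1). The fit was tested on simulated data. The members and lists were chosen with earlier results of these data known. The text names every subunit probe set, up to 4 genes of each list past the threshold, and the 4 probe sets most and 2 least like PRKAG3, among those with 1 symbol and a mean above the median; STK11 and GYS1 were added after their values were seen. Alternatives were quantile normalization, leaving out dim probe sets, raising low values to the 20th percentile, another prior, array weights, a spike-in covariate, a replicate block, leaving out bright arrays and leaving out each array. Weight block, pen and slaughter date per pig were not used here.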

Additional observations from a re-analysis of the deposited data

Results flagged for a closer look

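One value lay far from the rest of its group. In the dimmer PRKAA1 probe set, HP replicate 4 had a level of 1.80, the lowest of the 6 HP pigs, and the next was 3.67. The gap of 1.87 was 0.699 of the range of the group. The highest negative control of that array was 3.58. The limit used for such a gap is passed by chance in about 1 in 20 groups, and 18 groups were tested.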

How the results depend on the processing

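The sign of PRKAG3 was positive under all alternatives, while its call was not stable. Its difference was 0.63 and passed with dim probe sets left out and with a trended robust prior, 0.67 with array weights, 0.91 with the spike-in covariate and 0.90 without HP replicates 1, 2 and 4, and ran from 0.44 to 0.76 when each pig was left out. In each of these 5 settings 1 subunit probe set passed, against 0 on the deposited levels and 0 to 1 when each pig was left out. Signs turned for PRKAA2 (0.048 after quantile normalization, 0.13 with the spike-in covariate, 0.15 without HP replicates 1, 2 and 4; -0.17 to 0.021 leaving out each pig), PRKAB1 (0.10 without HP replicates 1, 2 and 4; -0.16 to 0.0055), PRKAG2 (-0.054 to 0.18) and the brighter PRKAG1 probe set (0.093 with the spike-in covariate, 0.19 without HP replicates 1, 2 and 4; -0.11 to 0.026). STK11 turned to 0.012 without HP replicates 1, 2 and 4. The cause was not tested. Pathway genes past the threshold numbered 4, and 7 with the trended prior and 1 to 14 leaving out each pig. Over all probe sets 1227 passed, 710 with dim probe sets left out, where fewer were tested, and 1884 without HP replicates 1, 2 and 4. No pair of subunits passed adjustment by Pearson r in any setting. By Spearman rho 1 pair did, PRKAG1 with PRKAG2 without HP replicate 6 (rho 0.903, adjusted permutation p = 0.0212).

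Replicate numbers were shared by 5 LP and 5 HP pigs, but correlations of same-numbered pigs ran from -0.07 to 0.08, and 2 of 5 HP pigs and 1 of 5 LP pigs correlated best with their own number, so the numbers were not taken to pair the pigs. With the replicate block, in which HP replicate 6 has no partner and adds nothing to the difference, PRKAG3 was 0.58 and did not pass, PRKAB2 turned to 0.15 (-0.26 to 0.15 leaving out each pig) and the dimmer PRKAG1 probe set to -0.013 (-0.01 to 0.14), and 1232 probe sets passed over the array. PPARA (-0.81) and CREB1 (0.29) no longer passed with the block.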
